A study of Drosophila melanogaster with 2 samples.

Results

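The cytoplasmic ribosomal protein genes encode the proteins of the large (60S) and small (40S) subunits of the ribosome. They were chosen by symbol (RpL, RpS or RpLP, with sta, which encodes a small subunit protein), and the rule found 93 of the 13945 protein-coding genes on the chromosome arms 2L, 2R, 3L, 3R, 4 and X. Of these, 47 encode large subunit proteins, 38 small subunit proteins, 3 the acidic stalk proteins and 5 are relatives named with the suffix "-like". Binding of Crol, a zinc finger protein whose gene, crooked legs, responds to the moulting hormone ecdysone, was mapped by chromatin immunoprecipitation and sequencing (ChIP-seq). Whole Drosophila melanogaster embryos of 0 to 24 h came from the transgenic strain crol-GFP, which carries an insertion targeting crol and makes a crol-eGFP fusion protein, and chromatin was precipitated with an anti-GFP antibody (another label field gives crol). There was 1 group of 2 biological replicates, both of the same genotype, age and antibody, and a control experiment named in the labels was not analysed here. All cell types of the embryo were pooled in each library, so that binding in few cells and weak binding in many cannot be told apart. The promoter that drives the fusion is not given in the sources used here.

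Ribosomal protein genes are among the most strongly transcribed genes of every growing cell, and loss of a copy of many of them gives the Minute flies, which have short bristles and slow development. Many of their promoters in Drosophila start transcription within a run of pyrimidines, the TCT or pyrimidine initiator, instead of the usual initiator. Other elements known from promoters of broadly expressed fly genes are the DNA replication-related element (DRE), bound by the factor Dref, and motif 1, bound by the factor M1BP. A repeat of GA is bound by GAGA factor at many developmentally regulated promoters.

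The sequences below are starts of members with a Crol peak, and are shown because they hold the DRE, the motif 1 core or the pyrimidine run that the counts further on refer to. Each runs 5′ to 3′ on the strand of the gene, from 100 bases before the transcription start site (TSS) to the first 20 transcribed bases, in dm6 coordinates, and was read from the RefSeq copy of that assembly. Capitals mark the DRE (TATCGATA), the motif 1 core (GGTCACAC) and a CTTT with the base after it that began within 5 bases of the TSS. In RpL37A the motif 1 core runs into the pyrimidine run.
RpS25 (chr3R:11216268-11216387, minus strand): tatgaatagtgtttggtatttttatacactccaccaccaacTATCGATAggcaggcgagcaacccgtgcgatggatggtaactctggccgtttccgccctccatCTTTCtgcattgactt
RpS10b (chrX:19597931-19598050, plus strand): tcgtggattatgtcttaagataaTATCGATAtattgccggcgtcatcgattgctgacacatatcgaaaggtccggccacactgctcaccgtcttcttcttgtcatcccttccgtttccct
RpL27 (chr3R:25685032-25685151, minus strand): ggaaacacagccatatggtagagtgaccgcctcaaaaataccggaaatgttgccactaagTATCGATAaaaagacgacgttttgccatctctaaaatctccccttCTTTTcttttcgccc
RpS7 (chr3R:30209001-30209120, minus strand): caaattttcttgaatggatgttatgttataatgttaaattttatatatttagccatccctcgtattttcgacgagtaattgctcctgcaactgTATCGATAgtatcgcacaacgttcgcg
RpL34a (chr3R:26059248-26059367, minus strand): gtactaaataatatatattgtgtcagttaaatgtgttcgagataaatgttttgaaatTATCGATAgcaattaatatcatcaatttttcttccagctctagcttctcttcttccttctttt
RpL28 (chr3L:3222941-3223060, minus strand): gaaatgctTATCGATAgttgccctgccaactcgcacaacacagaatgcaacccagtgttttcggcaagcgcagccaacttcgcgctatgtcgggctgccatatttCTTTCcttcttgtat
RpL27A (chr2L:4458325-4458444, minus strand): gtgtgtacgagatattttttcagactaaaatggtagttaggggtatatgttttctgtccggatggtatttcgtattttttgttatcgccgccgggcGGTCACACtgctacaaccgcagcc
RpLP1 (chr2L:419852-419971, plus strand): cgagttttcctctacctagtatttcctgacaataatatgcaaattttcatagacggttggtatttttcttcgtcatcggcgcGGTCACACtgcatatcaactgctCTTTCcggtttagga
RpL37A (chr2L:5070900-5071019, plus strand): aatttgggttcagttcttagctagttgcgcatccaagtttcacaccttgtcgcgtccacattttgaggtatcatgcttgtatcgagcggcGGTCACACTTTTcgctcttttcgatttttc
RpL14 (chr3L:8600906-8601025, plus strand): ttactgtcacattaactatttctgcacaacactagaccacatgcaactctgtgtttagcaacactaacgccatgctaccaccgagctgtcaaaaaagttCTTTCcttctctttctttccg
RpL32 (chr3R:30046142-30046261, minus strand): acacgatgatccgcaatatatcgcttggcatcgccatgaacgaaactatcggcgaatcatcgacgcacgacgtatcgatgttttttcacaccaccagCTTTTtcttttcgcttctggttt

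A further set of members shared letters that were noticed only after these sequences and the members' summit windows had been read. The word CCAACTTC, in capitals below, is shown on the strand that reads it, with 11 bases on each side.
RpL27A (chr2L:4458308-4458337, minus strand): tacaaccgcagCCAACTTCgcttctttctt
RpS21 (chr2L:2856077-2856106, plus strand): gcgcagcgcagCCAACTTCacgtccagctg
RpS28b (chrX:9554583-9554612, plus strand): gcgcaacgcagCCAACTTCacgtcgctgtg
RpL13 (chr2L:9967302-9967331, minus strand): ggaaatcgcaaCCAACTTCacgtcgtaggc
RpL28 (chr3L:3222969-3222998, minus strand): ggcaagcgcagCCAACTTCgcgctatgtcg
RpS19a (chrX:16637868-16637897, plus strand): attaaccgcagCCAACTTCacgcgccttgt

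Crol peaks lay over the starts of about 3 in 10 ribosomal protein genes, and nearly all of them sat close to the TSS. In the conservative list, which holds the peaks that passed between both replicates, 29 members had a summit within 500 bp of a TSS. This was 31.2% of members (exact Clopper-Pearson 95% interval 22.0 to 41.6), against 15.5% of all protein-coding genes. Within 100 bp of a TSS the count was 27 members, or 29.0% (20.1 to 39.4), against 5.11% of all protein-coding genes. The share of members hardly moved between 100 and 500 bp, while that of all coding genes grew 3 times as large. With 250 bp the counts were 28 members against 11.2% of all coding genes, and with 1000 bp 34 members against 21.0%. The window of 100 bp was added after the positions had been seen. Whether signal at these starts also occurs without the fusion protein was not tested. These counts describe a single group and carry no test, and the intervals cover the counting of genes only, since the sequencing depth is unknown.

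**Figure D1:**
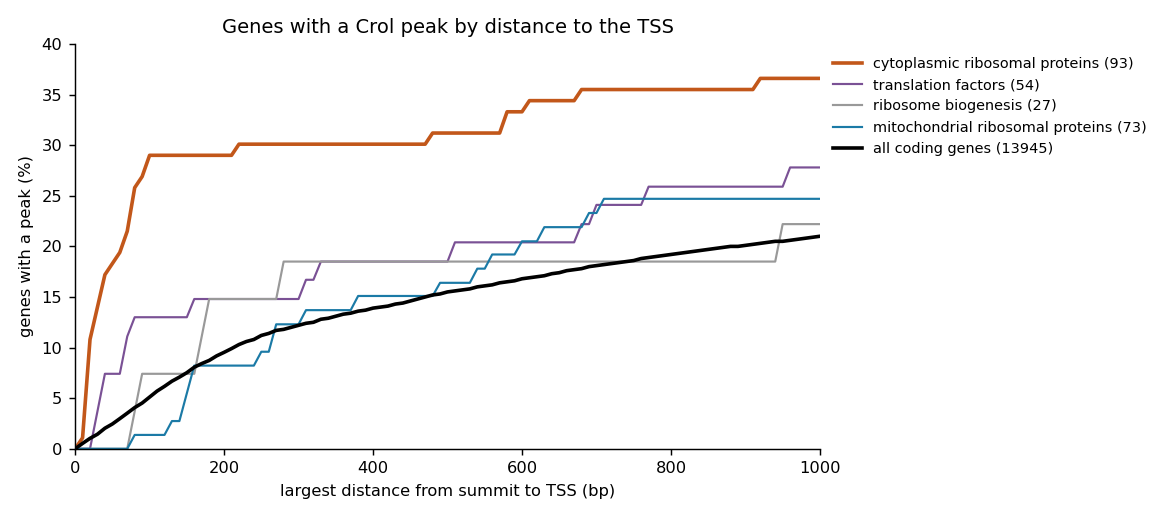
Share of genes with a conservative Crol summit (%) within the distance to a TSS given on the x axis (bp), for cytoplasmic ribosomal protein genes, 3 other gene lists of translation and all coding genes. The line of the ribosomal protein genes reaches 29.0% at 100 bp and 31.2% at 500 bp, while that of all coding genes climbs from 5.11% to 15.5%.

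The strongest peak of each member with a peak was measured from its nearest TSS. The median position was -26.0 bp, upstream of the TSS (quartiles -66.0 and 12.0, range -214 to 479). Upstream summits numbered 20 of the 29 (69.0%), near the 62.5% of other coding genes with a promoter peak. Of the 29 summits, 26 (89.7%) were within 100 bp and 17 (58.6%) within 50 bp of the TSS. RpL34b, whose strongest summit lay farther inside the gene, had a weaker second summit within 100 bp and makes up the count of 27 genes. Both of its summits are listed with the same replicate 2 signal of 85.8, so the second has no separate value in that replicate. Among the 2127 other coding genes with a promoter peak, 27.2% had their strongest summit within 100 bp and 12.3% within 50 bp. The median distance without its sign was 35.0 bp for members and 178 bp for the others. Among 1287 other genes whose peak signals fell between the lowest and highest member, the median was 171 bp and 28.6% were within 100 bp. Against the annotation, 17 member summits were outside the gene, 8 in its 5′ UTR, 2 in an intron and 2 in a coding exon.

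**Figure D2:**
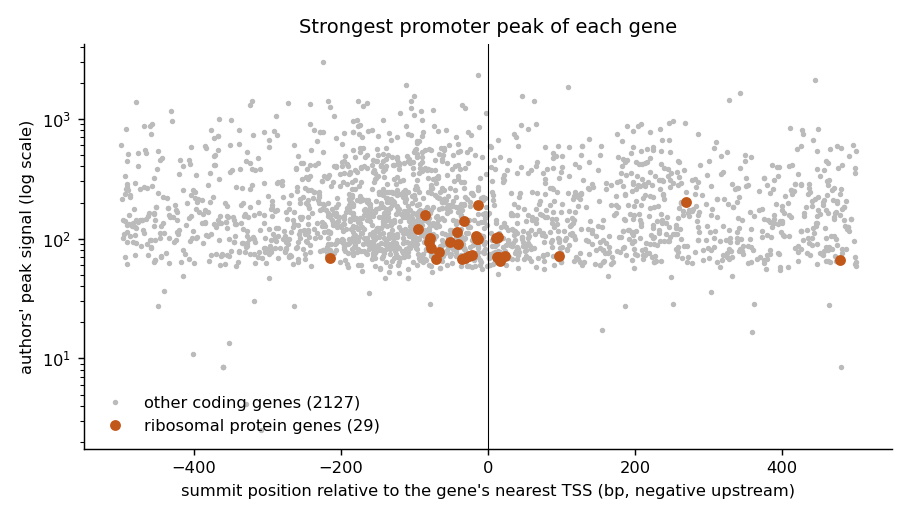
Each gene's strongest conservative promoter peak, by the position of its summit from the gene's nearest TSS (bp, negative upstream) and by the authors' signal (log scale), for 29 ribosomal protein genes and 2127 other coding genes. The members gather around the TSS between signals of 64.8 and 203, and 3 of them (RpL34b, RpS20 and RpS3) lie more than 100 bp away.

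The peaks were of modest height. The authors' deposited signal of a peak has no stated scale and was compared within 1 list only. The median over the 29 members was 89.3 (range 64.8 to 203), against 143 for the 2127 other coding genes with a promoter peak and 113 for the whole list of 9211 peaks. The members held ranks from 2108 to 8162, with a median rank of 6032, and 6 of 29 (20.7%) were above the median signal of the list, against 61.5% of the other genes. In the replicates the members' signals had medians of 42.6 (range 30.8 to 118) in replicate 1 and 43.9 (27.6 to 96.5) in replicate 2. The ratio of replicate 2 to replicate 1 had a median of 0.935 and ran from 0.618 to 1.61. None of these 29 members thus differed between replicates by as much as 2-fold. The list was thresholded between replicates, which favours such close values, and they do not extend to members outside it. The joint signal was on average 0.984 of the sum of both replicates' signals. The score, a rescaled irreproducible discovery rate, was at its highest value of 1000 in 21 of the 29 members and at least 836 in the rest. The lowest score in the whole list was 830.

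**Figure D3:**
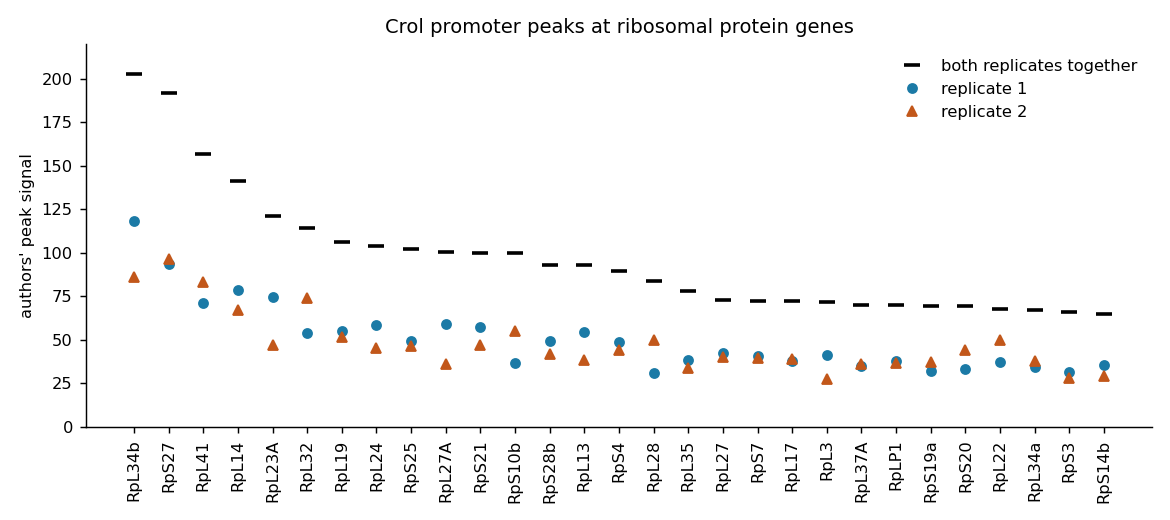
Authors' signal of the strongest promoter peak of the 29 members with one, with the joint value (dash) and the values in replicate 1 (circle) and replicate 2 (triangle), ordered by the joint value. RpL34b and RpS27 stand highest at 203 and 192, and both replicates lie below 60 for most members.

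Among the large subunit genes, 17 of 47 had a promoter peak (36.2%, 22.7 to 51.5), and the highest signal of all members was at RpL34b (chr3R:9400546-9400955). Its signal was 118 in replicate 1, 85.8 in replicate 2 and 203 jointly. The summit was 269 bp downstream of the TSS in a coding exon, unlike nearly all other members. The second summit of RpL34b, 68 bp downstream, had a joint signal of 36.8, with 35.9 in replicate 1 and the same 85.8 in replicate 2. RpL41, which encodes a very short peptide of the large subunit (chr2R:24903815-24904224), had 71.1 and 83.2 in replicates 1 and 2 and 157 jointly, 85 bp upstream. That summit was also 97 bp upstream of NaCP60E, a sodium channel gene. RpL14 (chr3L:8600769-8601178) had 78.4 and 67.3, and 141 jointly, 32 bp upstream. On its other side, at 95 bp, began Nelf-E, which encodes a subunit of the negative elongation factor that holds paused RNA polymerase.

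RpL23A encodes a protein at the exit of the peptide tunnel, and its peak (chr3L:1668544-1668953) had no other coding start within 500 bp. The signal was 74.8 in replicate 1 and 47.2 in replicate 2, and 121 jointly, 95 bp upstream. At RpL32, widely used as a reference gene under the name rp49 (chr3R:30045998-30046407), the order was the other way, with 53.8 and 73.8, and 114 jointly, 42 bp upstream. RpL19 (chr2R:24969320-24969729), a protein that contacts the small subunit, had 55.3 and 51.4, and 106 jointly, 16 bp upstream of its nearest TSS. RpL24 (chr2L:13394912-13395321) had 58.5 and 45.1, and 104 jointly, 14 bp downstream. RpL27A (chr2L:4458128-4458537) had 58.8 and 36.3, the lowest ratio of the 29 members, and 100.3 jointly, 11 bp downstream. The signals of the remaining large subunit genes formed a narrow range: RpL13 had 92.8, RpL28 84.0, RpL35 77.8, RpL27 72.6, RpL17 72.0, RpL3, whose protein reaches the peptidyl transferase centre, 71.7, RpL37A 69.9, RpL22 67.6 and RpL34a 67.3.

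Among the small subunit genes, 11 of 38 had a promoter peak (28.9%, 15.4 to 45.9). RpS27, which encodes a protein with a zinc finger, stood apart from the rest with 93.3 in replicate 1, 96.5 in replicate 2 and 192 jointly. Its peak (chr3R:25247472-25247589) was only 118 bp wide, with the summit 13 bp upstream, while the peaks of the other 28 members had the width of 410 bp that 71.6% of the conservative list has. RpS25 (chr3R:11216161-11216570), known for its part in initiation at internal ribosome entry sites, had 49.5 and 46.3, and 102 jointly, 79 bp upstream. The lower values were 99.9 at both RpS21 and RpS10b, 92.8 at RpS28b, 89.3 at RpS4, 72.1 at RpS7, 69.4 at RpS19a, 69.2 at RpS20, 65.7 at RpS3 and 64.8 at RpS14b. RpS3, which lines the path by which messenger RNA enters, had its summit 479 bp downstream in a coding exon, the member with a peak nearest to the edge of the window. RpS4 had a second peak of 56.0 at 467 bp downstream. Further summits with very low joint signals were listed at RpL19 (5.05, at -224 bp) and RpS19a (5.22, at -10 bp). Both are listed with the replicate signals of the gene's main peak, so they have no separate replicate values.

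The stalk recruits translation factors to the large subunit. Of its 3 genes, RpLP1 had a peak, with 38.0 in replicate 1, 36.5 in replicate 2 and 69.8 jointly, while RpLP0 and RpLP2 had none in the conservative list or in the ranked list between replicates, which holds peaks before the threshold. RpLP0 had one in the optimal list. None of the 5 genes named "-like" had a conservative peak (0%, interval up to 52.2%). By arm, a peak was at 7 of 15 members on X, beside 17.9% of all coding genes of that arm, at 10 of 23 on 3R (14.1%), 6 of 19 on 2L (13.6%), 4 of 14 on 3L (16.0%), 2 of 21 on 2R (16.8%) and 0 of 1 on 4 (2.50%).

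The list of each replicate alone, which the authors thresholded without the other replicate, held fewer members. Replicate 1 had 19 members with a promoter peak (13.2% of all coding genes had one) and 17 within 100 bp (4.43%). Replicate 2 had 20 (11.9%) and 18 (3.52%). Of all members, 12 were in both lists and 27 in either. Of the 29 members of the conservative list, 12 were in both lists, 4 in that of replicate 1 only, 3 in that of replicate 2 only and 10 in neither, so that the identity of the members with a peak was less firm than their number. Another 8 members were in the list of a replicate and not in the conservative one. The optimal list held 31 members, against 16.5% of all coding genes, and 8 of the 31 were not conservative.

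Of the 64 members without a conservative promoter peak, 39 had a weaker one in the ranked list. In all, 68 members had a ranked peak within 500 bp, against 57.0% of all coding genes, and 58 within 100 bp, against 24.5%. The strongest of these weaker peaks was at RpS15Aa, with 29.8 in replicate 1, 66.8 in replicate 2 and 87.0 jointly. RpL4 had 23.5 and 62.3, and 86.1 jointly, and RpL23 had 5.62 and 43.8, and 75.6 jointly. These 3 were lower in replicate 1. RpL37-1 had 44.5 and 24.0, and 73.6 jointly, and RpL13A had 29.7 and 46.9, and 68.2 jointly. RpL13A had a score of 864, above the lowest score of 830 in the conservative list, and was not in that list. RpL30, named after its values were seen, missed that score with 829 and had a signal of 64.7. The joint signals of RpS15Aa, RpL4, RpL23 and RpL37-1 were thus as high as those of members in the conservative list, and their scores, from 89 to 782, were lower.

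No ranked promoter peak was listed for 25 members, among them RpL5, RpL6, RpL7, RpL9, RpL10, RpL10Aa, RpL11, RpL12, RpL15, RpL21, RpL22-like, RpL24-like, RpL35A, RpL36A, RpL38, RpL39, RpL40, RpLP0, RpLP2, RpS3A, RpS26, RpS27A, RpS28-like and RpS30. This holds for the ranked list between replicates: RpL7 had a peak in the list of replicate 1 and RpLP0 in the optimal list. RpL40 and RpS27A encode fusions with ubiquitin, and RpL5 and RpL11 encode the proteins that join the 5S ribosomal RNA. With the depth unknown, a missing peak was not detectable here and is not shown to be absent. Just outside the window of 500 bp, the nearest conservative summit was 571 bp from RpS2 (signal 112), 572 bp from RpS19b (189), 605 bp from RpL4 (55.3) and 671 bp from RpL26 (71.2).

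Pairs of genes for related proteins were set side by side as a description, since with a peak at 31.2% of members many pairs would hold a peak at a single gene by that share alone. Of 12 pairs matched by symbol, 6 had a peak at 1 gene, 5 at neither and RpL34a with RpL34b at both. RpL22 had 67.6 and RpL24 had 104, while their relatives RpL22-like and RpL24-like had no ranked peak. RpS10b had 99.9, against a weaker peak of 18.1 at RpS10a. RpS14a and RpS14b lie close together on the plus strand of X, where RpS14a ends at 7934677 and RpS14b begins at 7934898. RpS14b had 64.8 against 30.8 at RpS14a. RpS19a had 69.4 against 20.1 at RpS19b, and RpS28b had 92.8 against 43.0 at RpS28a. In the start regions of these 12 genes no stretch of 36 bases recurred elsewhere in the genome. In these 6 pairs the gene with the conservative peak was higher in both replicates wherever its relative had a ranked peak. The pairs were picked because 1 gene had such a peak and its relative had none, and this choice favours that order. The order is therefore no separate evidence of a difference between the genes of a pair.

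Many starts of ribosomal protein genes lie head to head with another gene, and a peak between both starts cannot be given to one of them. Of the 29 member summits, 14 had the TSS of another coding gene within 500 bp and 15 had none. The nearest coding TSS was that of the member in 27 cases. The exceptions were RpS20, whose summit was nearer to CG17271 (119 bp against 214 bp), and RpL13. The summit at RpL13 was 80 bp from RpL13 and 4 bp upstream of Dref, the gene of the DRE-binding factor. Other shared starts were those of RpS27 with Nup37, a gene of the nuclear pore, of RpL28 with eIF1, an initiation factor, and of RpL34a with Trmt61, a gene of a transfer RNA methyltransferase. A coding gene in the opposite direction began within 500 bp of 15 members with a peak (51.7%), 22 without one (34.4%) and 26.4% of all coding genes. Members with a peak had several annotated TSSs in 17 cases (58.6%) and members without one in 28 (43.8%), against 26.5% of all coding genes. With the most upstream TSS alone, 29 members had a peak, against 12.4% of all coding genes. Small nucleolar RNA genes, which guide modification of ribosomal RNA, lay within 10 members with a peak (34.5%) and 19 without one (29.7%). Median gene lengths were 1356 bp and 1300 bp.

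The promoters of members were searched from 250 bases before to 50 after the gene's most upstream TSS on both strands. TATCGATA and CACGTG read the same on both strands. The DRE, TATCGATA, was in 28 of 93 members (30.1%, 21.0 to 40.5), against 9.36% of all coding genes, and the motif 1 core, GGTCACAC, in 15 (16.1%, 9.32 to 25.2), against 7.70%. Both were about as frequent in members with a peak as in those without: the DRE was in 8 of 29 and 20 of 64, and the motif 1 core in 5 of 29 and 10 of 64. The pyrimidine run CTTTT within 5 bases of the TSS, on the sense strand, was in 13 members (14.0%, 7.66 to 22.7), against 1.94% of all coding genes. With any annotated TSS, an alternative added later, it was in 30 members (32.3%) against 2.88%. With CTTT followed by any base (CTTTN) at any annotated TSS, it was in 58 members (62.4%) against 8.07%, in 22 of 29 members with a peak and 36 of 64 without. The E-box CACGTG was in 8 members (8.60%, 3.79 to 16.2), against 4.20%. The GAGA word GAGAG was in 16 members (17.2%, 10.2 to 26.4), against 29.7%, and the initiator word TCAGT in 32 (34.4%, 24.9 to 45.0), against 51.5%. TCAGT was counted anywhere in the searched window. Its share is therefore not that of promoters with an initiator at the TSS. A run of 5 G (GGGGG) was in 13 members (14.0%, 7.66 to 22.7), against 13.0%.

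The sequences around the members' summits were unlike those around other Crol promoter summits. Within 100 bp of the summit, GAGAG was in 3 of 29 members (10.3%, 2.19 to 27.4), against 1052 of 2246 coding promoter peaks (46.8%, 44.8 to 48.9). GGGGG was in 6 members (20.7%, 7.99 to 39.7), against 1094 peaks (48.7%, 46.6 to 50.8). The DRE went the other way, with 8 members (27.6%, 12.7 to 47.2) against 43 peaks (1.91%, 1.39 to 2.57), so that members made up 8 of the 43. The motif 1 core was in 5 members (17.2%, 5.85 to 35.8) against 43 peaks (1.91%). The members with both a peak and a DRE in the promoter, RpL19, RpL27, RpL28, RpL34a, RpL41, RpS7, RpS10b and RpS25, were the same 8 genes, and 6 of them are among the sequences shown above.

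Members and other genes were also compared among peaks within 100 bp of a TSS, a comparison added after these values were seen. Of the 26 members whose strongest summit was that near, GAGAG was in 2 (7.69%, 0.946 to 25.1), GGGGG in 4 (15.4%, 4.36 to 34.9), the DRE in 8 (30.8%, 14.3 to 51.8) and the motif 1 core in 4 (15.4%, 4.36 to 34.9). Of 411 promoter peaks of other genes that lay in the members' signal range and within 100 bp of a TSS, 176 held GAGAG (42.8%, 38.0 to 47.8), 121 GGGGG (29.4%, 25.1 to 34.1), 20 the DRE (4.87%, 3 to 7.42) and 18 the motif 1 core (4.38%, 2.62 to 6.83). The intervals of the 26 members and of these peaks were apart for GAGAG and the DRE and overlapped for GGGGG and the motif 1 core. A word in a window is a description of sequence and not a bound site.

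**Figure D4:**
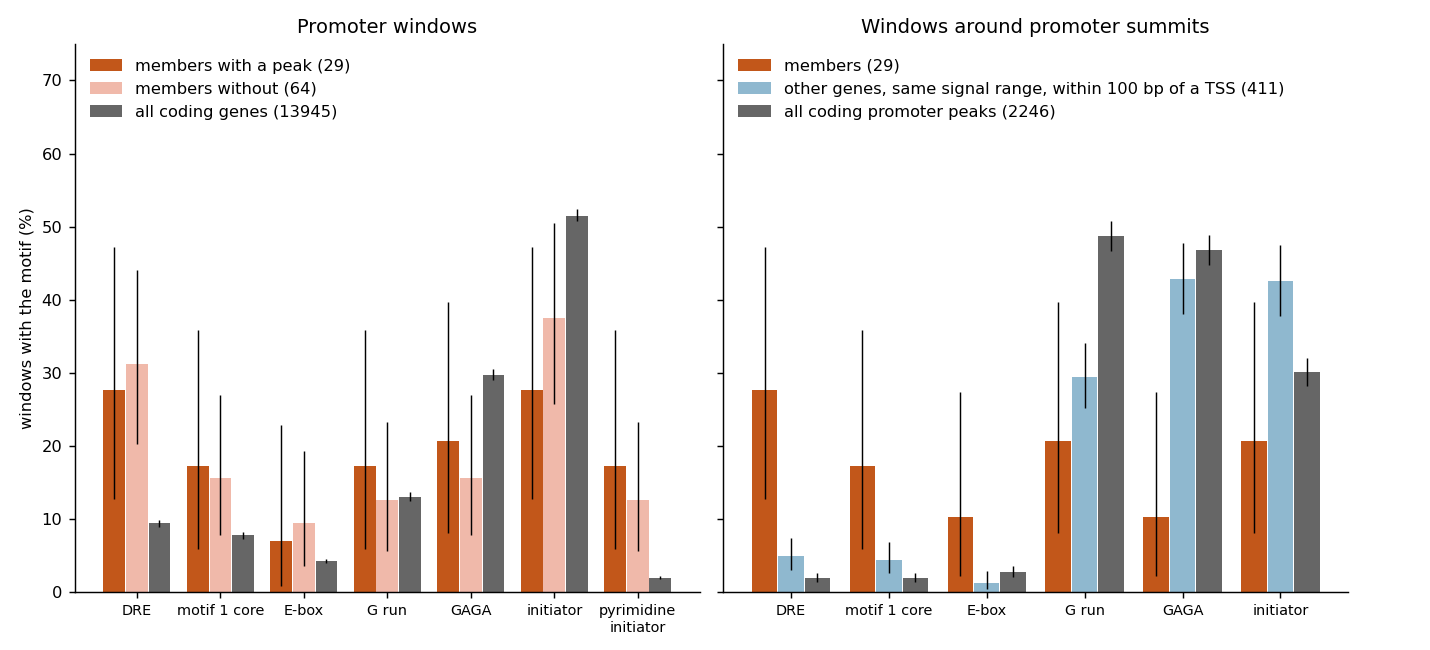
Share of windows that hold each motif (%), with exact 95% intervals as bars, in promoters (left) and within 100 bp of promoter summits (right). The share of promoters with the DRE is close in members with a peak (27.6%) and without one (31.2%). Around summits members hold it in 27.6% and GAGA in 10.3%, against 1.91% and 46.8% of all coding promoter peaks.

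The word CCAACTTC, on either strand, lay within 100 bp of the summit in 6 members, RpL27A, RpS21, RpS28b, RpL13, RpL28 and RpS19a, which are the sequences of the second set above. It was in 17 of 2246 coding promoter peaks (0.757%) and in 72 of all 9211 peaks (0.782%). In promoters it was in these 6 of the 29 members with a peak, in 1 of 64 without one (RpS26) and in 131 of 13945 coding genes (0.939%). Its middle was 3 to 26 bp from the member's TSS and 4 to 83 bp from the summit. In 5 of the 6 the 5 bases before it were also the same. The word of 13 letters made from these 5 sites was in 9 promoters of all coding genes and in no member without a peak. That the 9 include the 5 members with a peak follows from how the word was made. The 9 letters AACTTCACG were in 4 members' summit windows and in no other coding promoter peak. In RpL13 the word reads on the strand opposite to the gene, which is the strand of Dref. The word was picked from many: 4676 different words of 8 letters occurred in the members' windows, 33 of them in 5 or more members, and words of 7 and 9 letters were looked at too. Its counts and those of the words of 9 and 13 letters therefore carry no test.

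The other genes of translation were counted in the same way. Among all coding genes, the share with a peak was 15.5% within 500 bp and 5.11% within 100 bp. It was 57.0% within 500 bp in the ranked list. The intervals of all 3 lists below within 500 bp hold that 15.5%. Of 73 mitochondrial ribosomal protein genes, 12 had a peak within 500 bp (16.4%, 8.79 to 27.0) and 1 within 100 bp (1.37%, 0.0347 to 7.40), and the highest signals were 447 at mRpL41, 408 at mRpS23 and mRpS10 and 314 at mRpL23. Of 54 initiation, elongation and release factor genes, 10 had one (18.5%, 9.25 to 31.4) and 7 within 100 bp (13.0%, 5.37 to 24.9), led by eRF3 with 483, eRF1 with 447, eIF6 with 376 and eIF5B with 356. Of 27 ribosome biogenesis genes, 5 had one (18.5%, 6.30 to 38.1) and 2 within 100 bp (7.41%, 0.910 to 24.3), with 390.1 at Nop17l, 376 at eIF6, which is on both lists, 135 at Ns2 and 63.1 at mbm. The median distance of their strongest summits, without its sign, was 200 bp for the 12 mitochondrial genes, 67.5 bp for the 10 factors and 165 bp for the 5 biogenesis genes. The highest of these signals were above that of every ribosomal protein gene. At 500 bp the intervals of all 3 lists overlapped that of the cytoplasmic genes, and in the ranked list 24 of 27 biogenesis genes (88.9%), 37 of 54 factors (68.5%) and 47 of 73 mitochondrial genes (64.4%) had a peak, beside 73.1% of the cytoplasmic ones. The interval of the cytoplasmic genes within 100 bp lay apart from that of the mitochondrial ones and overlapped those of the factors and biogenesis genes.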

How the data were processed

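The authors' deposited peak lists on dm6 were used, which they ranked and thresholded by the irreproducible discovery rate, per the file notes. The deposited signal is the authors' peak height with no stated scale, the deposited score is their rescaled rate of 0 to 1000, and the summit is another deposited value, its offset from the interval's start. The labels and file notes used here give no aligner or peak caller, and depth is unknown. Replicate signals came from the authors' ranked list between replicates, whose 2 height columns recur with their intervals only in the list of replicate 1 (68123 of 87125 rows) or of replicate 2 (56158).

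Members, lists, motifs and the rule for named genes were chosen with earlier results of these data known. Named were every member with a conservative peak, the 10 strongest in full, the 5 strongest members without one, pairs of related genes with 1 peak and up to 4 genes of each other list. Members counted as having a promoter peak when a summit was at most 500 bp from a TSS of Ensembl release 115, and where a member had several the one with the highest signal was used. Shares carry exact Clopper-Pearson 95% intervals, which cover counting only, and no significance test was run. The peak-to-TSS step was tested on simulated data and gave the true distance for 200 of 200 planted summits. The values of a few genes are not reported here. Alternatives were other lists, windows, TSSs and single replicates. Python 3.11.15, numpy 2.4.6, pandas 2.3.3, scipy 1.17.1 and matplotlib 3.10.9 were used.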

Additional observations from a re-analysis of the deposited data

How the results depend on the processing

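The count of 29 members with a promoter peak ran from 27 to 34 with other windows, with the optimal list (31), with the ranked list at the lowest conservative score (30, against 15.8% of all coding genes), with the most upstream TSS alone (29, against 12.4%), with summits nearest to a member (27, against 13.5%) and without a member whose start region repeats in part elsewhere (28). It fell to 6 of 93 members among peaks above the median signal of the conservative list, against 9.42% of all coding genes. Among these stronger peaks the share of members was thus below that of all coding genes, unlike in the whole list. Leaving out a replicate gave 19 to 20 members, of which 12 genes were in both lists. The median signal of 89.3 was 86.7 with a window of 250 bp and 92.8 with 1000 bp, and 42.6 to 43.9 in a single replicate, where each replicate holds only its part of the joint signal. The median summit position of -26.0 bp was -22.0 bp with the most upstream TSS, and -5.00 to -39.5 bp in the lists of the replicates.

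With every annotated TSS the share of members with an E-box was 16.1% in place of 8.60% and with the pyrimidine run 32.3% in place of 14.0%. CTTT with any base gave 33.3% at the most upstream TSS alone, against 5.64% of all coding genes. At any annotated TSS it gave 62.4%, against 8.07%. The initiator word TCAGT was in 20.7% of the shorter windows around summits of the 29 members with a peak. It was in 27.6% of the promoters of these 29 members and in 34.4% of those of all 93 members. The count of mitochondrial ribosomal protein genes was 7 with a window of 250 bp (9.59%, against 11.2% of all coding genes) in place of 12 (16.4%, against 15.5%). That of biogenesis genes was 3 in either replicate's list in place of 5. This was 11.1%, against 13.2% of all coding genes in replicate 1 and 11.9% in replicate 2. Summits shared with a neighbour (14) ran from 10 to 16, and pairs with 1 peak (6) from 5 to 9, in the other lists. The cause of these differences was not tested. No paired analysis was possible because there is 1 group and no contrast.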
